A study of Mus musculus with 21 samples.

Results

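Neural crest and glial genes were followed in transplanted mouse melanoma (MM) cells through 8 members, which are Sox10, Sox2, Ngfr, Cryab, Fabp7, Fxyd1, Car6 and Syt4, of the 32285 genes in the count table. A cell was taken as a melanoma cell when the pigment genes Pmel, Dct, Mlana and Tyrp1 together made up 0.5% or more of its unique molecular identifiers (UMIs, each standing for 1 captured RNA molecule). This held for 54066 of 100359 cells. The members were chosen by their UMI levels in lung metastases against primary tumors and in host cells, so both are given as a description, without a test of any member.

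The study transplanted fragments of MT-ret melanoma under the skin of mT/mG mice, resected the primary tumor and waited for lung metastases. The hosts were 8 to 10 weeks old at transplantation and of both sexes, and no Cre recombinase was used, so that every host cell carries the red membrane protein tdTomato and the engrafted melanoma cells do not. Dissociated, frozen and thawed cells were sorted on tdTomato into unlabeled MM cells and labeled cells of the tumor microenvironment (TME), the latter in part after removal of CD45+ cells, and sequenced by 3' single-cell RNA sequencing. The labels give lung as the tissue of every sample, also of the primary tumors, which grew under the skin. After identical libraries had been counted once, 2 MM and 4 TME libraries of lung metastases, 2 MM and 4 TME libraries of primary tumors and 4 libraries of unchallenged lung from mice without a tumor were left. By the library names, replicate 5 of the MM libraries comes from mouse 17 at both sites and replicate 6 of the TME libraries from mouse 18 at both sites, whereas replicate 4 comes from mouse 14 in the metastasis and mouse 13 in the primary tumor. Mouse numbers are less sure for some TME libraries, because names with different numbers hold the same cells. Those of replicate 5 are also deposited as mouse 21 and those of replicate 6 as mouse 22, at both sites, and the metastasis TME library of replicate 6 is deposited once more, as an MM library of mouse 21. Ratios within mouse 18 therefore rest on names that conflict, also on the sort, while the MM libraries of mouse 17 have 1 name each. The library names place replicate 4 in run 2 and replicates 5 and 6 in run 3, and do not say what a run is. Libraries numbered 1-3 pool several mice. In summed counts, fewer cells with a gene and less of its RNA per cell cannot be told apart.

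Melanocytes and the Schwann cells that wrap peripheral nerves both descend from the neural crest, an embryonic population of migrating cells. SOX10 is the transcription factor that both lineages keep, in melanocytes upstream of Mitf and the pigment enzymes and in Schwann cells upstream of myelin and glial genes. SOX2 is a factor of stem cells and immature Schwann cells, and NGFR, the low affinity nerve growth factor receptor, marks migrating neural crest cells and melanoma cells with little pigment. Fabp7 (a fatty acid binding protein of radial glia and Schwann cell precursors), Fxyd1 (phospholemman, a regulator of the sodium potassium pump) and Cryab (the small heat shock protein alpha B crystallin) are expressed in glia, while Car6 encodes a secreted carbonic anhydrase and Syt4 a synaptotagmin, a vesicle protein of neurons and neuroendocrine cells.

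In GENCODE vM21 on GRCm38 the members are protein coding genes. Sox10 (ENSMUSG00000033006) lies at chr15:79154908-79165240 on the minus strand, Sox2 (ENSMUSG00000074637) at chr3:34650405-34652461 on the plus strand, Ngfr (ENSMUSG00000000120) at chr11:95568818-95587735 on the minus strand and Cryab (ENSMUSG00000032060) at chr9:50751325-50756636 on the plus strand. Fabp7 (ENSMUSG00000019874) lies at chr10:57784881-57788450 on the plus strand, and Fxyd1 (ENSMUSG00000036570) at chr7:31051678-31057199 and Car6 (ENSMUSG00000028972) at chr4:150187015-150201332, both on the minus strand. Syt4 has the identifier ENSMUSG00000024261. Sox2 lies inside the transcript Sox2ot on the same strand, so that UMIs of the pair are told apart only by where reads end. Cryab overlaps Hspb2 and Syt4 overlaps Gm26658 on the opposite strand, and the sources used here do not say how the counting used strand.

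RefSeq start site windows (GRCm38.p6, 250 bases before to 50 after the start) were matched for 5 of the 8 members. They were searched on both strands for the SOX core motifs ACAAAG and ACAATG and for CATGTG and CACGTG, the sites read by MITF. Of all 32851 windows, 28.6% hold at least 1 of both SOX motifs, 14.2% hold CATGTG and 7.15% hold CACGTG. Sox2 holds ACAAAG and CATGTG, Fxyd1 holds ACAAAG, Car6 holds ACAATG on either strand and CACGTG, and Ngfr and Fabp7 hold none of these letters. The windows of Sox2, which differed most between tumors, and of Fabp7, Fxyd1 and Car6, which were all lower in metastasis within replicates 4 and 5 of the MM libraries, are printed 5' to 3' with the matches in capitals. A match is a description of letters and shows no binding.
Sox2 promoter (chr3:34649745-34650044, plus strand): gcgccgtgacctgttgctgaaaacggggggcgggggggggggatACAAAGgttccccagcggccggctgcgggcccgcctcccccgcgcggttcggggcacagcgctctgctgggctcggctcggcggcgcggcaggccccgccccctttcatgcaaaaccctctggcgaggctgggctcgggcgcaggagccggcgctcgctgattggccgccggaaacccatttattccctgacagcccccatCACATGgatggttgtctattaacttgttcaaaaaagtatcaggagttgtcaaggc
Fabp7 promoter (chr10:57784673-57784972, plus strand): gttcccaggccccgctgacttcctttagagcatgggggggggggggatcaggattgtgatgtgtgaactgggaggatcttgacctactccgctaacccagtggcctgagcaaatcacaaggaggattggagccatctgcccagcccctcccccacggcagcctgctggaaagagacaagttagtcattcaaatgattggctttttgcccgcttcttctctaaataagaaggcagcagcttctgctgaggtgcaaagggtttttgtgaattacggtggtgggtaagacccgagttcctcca
Fxyd1 promoter (chr7:31054804-31055103, minus strand): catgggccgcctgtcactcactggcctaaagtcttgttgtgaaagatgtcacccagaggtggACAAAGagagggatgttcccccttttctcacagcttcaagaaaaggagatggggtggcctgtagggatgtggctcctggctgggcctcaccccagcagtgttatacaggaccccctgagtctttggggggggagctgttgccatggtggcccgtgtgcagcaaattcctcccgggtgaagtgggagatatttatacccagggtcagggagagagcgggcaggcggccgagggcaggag
Car6 promoter (chr4:150201086-150201385, minus strand): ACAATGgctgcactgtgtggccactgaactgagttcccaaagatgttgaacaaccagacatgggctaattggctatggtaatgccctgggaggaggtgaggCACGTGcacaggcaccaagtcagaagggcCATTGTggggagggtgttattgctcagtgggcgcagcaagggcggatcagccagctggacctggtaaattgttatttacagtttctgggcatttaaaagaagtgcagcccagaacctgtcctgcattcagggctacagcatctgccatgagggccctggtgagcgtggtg

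Some libraries stand apart. The MM library of metastasis replicate 4 held melanoma cells for only 257 of 638 cells (40.3%), against 98.5% to 99.8% in the other 3 MM libraries, and 196 of its 381 cells under the limit met a host class, that is, they carried at least 4 of 10 markers of a lung or tumor cell type. In the TME library of primary tumor replicate 6, 1114 of 1309 melanoma cells (85.1%) also met a host class, and in the summed counts of all its melanoma cells the collagen gene Col1a1 reached 1146 counts per 1000000 UMIs (CPM, the unit of every level below). In the TME library of metastasis replicate 5, 4028 of 5166 cells (78.0%) were melanoma cells, and 1050 of these (26.1%) met a host class. Its melanoma cells held 677 CPM of the alveolar type 2 gene Sftpc, against 1.46 in the MM library of that replicate. Melanoma cells of TME libraries had passed the sort for labeled cells, and how they did was not tested. The MM library of primary tumor replicate 4 is the largest, with 30328 melanoma cells, and the shallowest of the 4, with a median of 1654 UMIs a cell against 3664 to 4591. Between the MM libraries 1 to 87 cell barcodes were shared in 5 pairs, none with equal counts. Of melanocyte genes that the limit did not use, Mitf stood at 296 to 437 and Tyr at 185 to 733 CPM in the melanoma cells of the 4 MM libraries, while Ptprc (CD45) stood at 0.0642 to 0.14 in 3 of them and at 23.1 in metastasis replicate 4.

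SOX10, the lineage factor, was present at either site. In the melanoma cells of the MM libraries, summed per library, Sox10 stood at 127 CPM (95% Poisson interval 109 to 148) in metastasis replicate 4 and 212 in metastasis replicate 5, and at 179 and 259 in primary tumor replicates 4 and 5. The groups overlapped. Within mouse 17 the metastasis was 0.816 times the primary tumor, and within mouse 18, from TME libraries, it was 2.03 times (273 against 134), so the direction differed between mice. In that primary tumor library 85.1% of melanoma cells met a host class. Without such cells mouse 18 gave 285 against 161, the latter from 50 UMIs. The 2 metastasis TME libraries with 50 or more melanoma cells held 220 and 273 and those of primary tumor 201 and 134.

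Sox2 differed more between animals than between the sites of mouse 17. It stood at 44.2 CPM in the primary tumor and 25.01 in the metastasis of mouse 17, at 1.98 in the primary tumor of mouse 13, and at 1 UMI, 0.745 CPM (interval 0.0189 to 4.15), in the metastasis of mouse 14. Between the 2 primary tumors this is a 22.3-fold difference, the widest of any member, and both sites of mouse 17 lie above both tumors of run 2. TME libraries of the same mice gave 36.4 for the metastasis of mouse 17 and 7.61 for the primary tumor of mouse 13, and those of mouse 18 gave 19.9 and 14.1 for its metastasis and primary tumor. Without cells in a host class these last were 18.4 and 6.45, the primary tumor value from 2 UMIs. Mouse and run cannot be told apart here, since by their names the libraries of mice 13 and 14 belong to run 2 and those of mouse 17 to run 3.

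Ngfr, the receptor, was sparse in melanoma cells. It stood at 13.4 CPM (18 UMIs, interval 7.95 to 21.2) in metastasis replicate 4 and at 1.26, 3.05 and 2.09 in metastasis replicate 5 and primary tumor replicates 4 and 5. The highest value belongs to the library in which host cells were most common. Its level without melanoma cells that met a host class was 12.9 (17 UMIs). Ptprc, a leukocyte marker, stood at 23.1 CPM in the melanoma cells of that library and at 0.0642 to 0.14 in the other MM libraries. The part of leukocyte RNA in the Ngfr level was not tested.

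**Figure D1:**
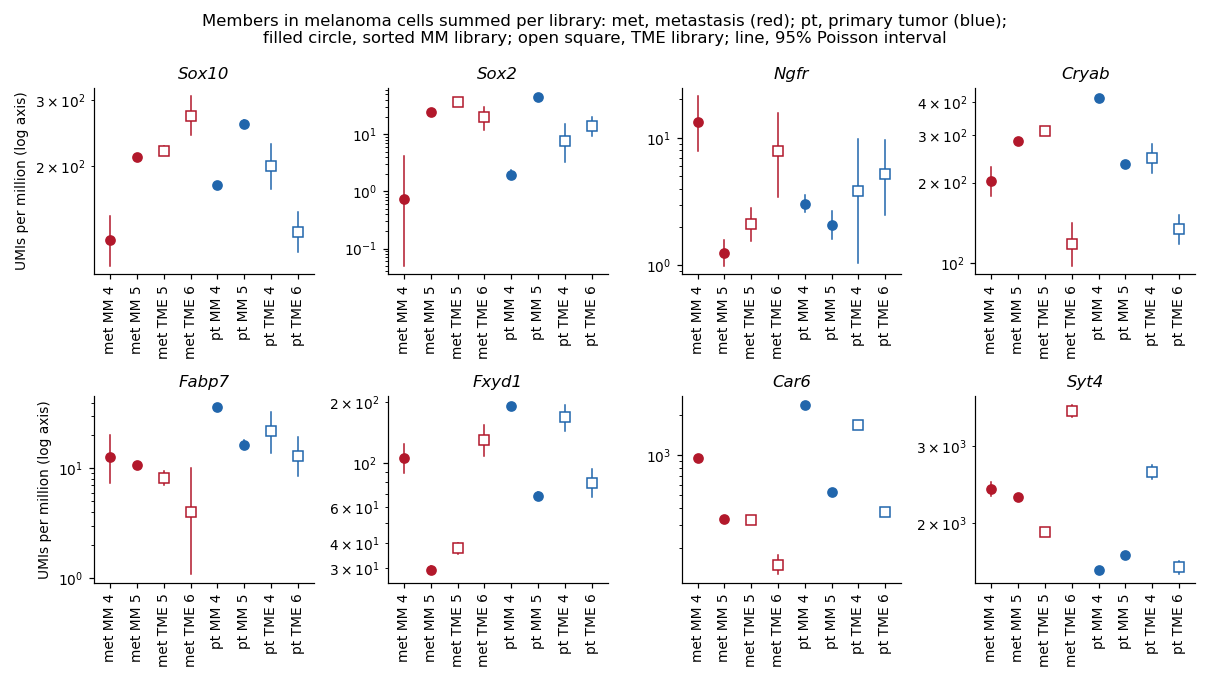
CPM, drawn as UMIs per 1000000 (log axes that differ between panels) of each member in melanoma cells summed per library, for the 8 libraries with 50 or more melanoma cells. Lines are 95% Poisson intervals, which cover counting error only. Sox2 is lowest in both MM libraries of replicate 4, Fabp7 does not overlap between the sites, and Syt4 is separated in the MM libraries but not once TME libraries are added.

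Among the glial genes, Fabp7 was lower in metastasis without overlap. It stood at 12.7 and 10.7 CPM in the metastasis MM libraries and at 36.8 and 16.5 in those of primary tumor, a mean of 11.7 ± 1.41 against 26.6 ± 14.3 (SD, n = 2 libraries each). Adding the TME libraries gave 3.97 to 12.7 in 4 metastasis libraries and 13.1 to 36.8 in 4 primary tumor libraries, which did not overlap either, although the highest metastasis and the lowest primary tumor value are nearly equal. Those 2 values rest on 17 and 25 UMIs, and without melanoma cells that met a host class they were 12.87 and 12.91, the latter from 4 UMIs. In mouse 17 the primary tumor held 1.55 times the metastasis level, in mouse 18 it held 3.29 times, from 25 UMIs against 4. Over all genes with 100 or more UMIs in these 8 libraries, 1.8% were lower in metastasis without overlap and 2.16% higher. By name, the MM and TME libraries of metastasis replicate 5 are both from mouse 17, and those of primary tumor replicate 4 from mouse 13. The libraries are thus not all from separate animals.

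Fxyd1, Car6 and Cryab overlapped between the sites. Fxyd1 stood at 106 and 29.3 CPM in metastasis replicates 4 and 5 and at 191 and 68.6 in the primary tumors, so that each primary tumor lay above the metastasis of its own replicate number. In mouse 18 the order was the other way, with 130 in the metastasis and 79.5 in the primary tumor. Car6 reached 2396 in the primary tumor of mouse 13, which is 4.49 times the 534 of mouse 17, and stood at 947 and 330 in the metastases. The TME library of mouse 13 held 1682 against 2396 in its MM library, and that of the metastasis of mouse 17 held 325 against 330. Cryab was 202 and 285 in the metastases and 414 and 234 in the primary tumors, lower in the metastasis of replicate 4 and higher in that of replicate 5.

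Syt4, the vesicle protein, had the order opposite to that of Fabp7. It stood at 2396 and 2302 CPM in the metastasis MM libraries and at 1566 and 1697 in the primary tumors, a mean of 2349 ± 66.6 against 1632 ± 92.6 (SD, n = 2 each), and the libraries did not overlap. In mouse 17 the metastasis was 1.36 times and in mouse 18 2.28 times the primary tumor. In the primary tumor library of mouse 18, 85.1% of melanoma cells met a host class. With the TME libraries the metastases ranged from 1915 to 3614 and the primary tumors from 1566 to 2617, and the groups then overlapped through the primary tumor TME library of mouse 13. Without cells in a host class the ranges were 2047 to 3618 and 1566 to 2520, which also overlapped.

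Across all 14363 genes tested, edgeR's quasi-likelihood test called only 1 gene (0.00696%) between the sites at an adjusted p below 0.05, and 537 (3.74%) had an unadjusted p below 0.05. That gene, named after its value was seen, is Ank3, which encodes a membrane scaffold protein, at 2.98 and 1.89 CPM in metastasis and 14.6 and 19.8 in primary tumor (edgeR adjusted p = 0.0458). With the replicate number as a block, which here stands for the run and for replicate 5 also for the mouse, 101 genes were called. Values of the MM libraries did not overlap for 27.1% of genes tested. Fabp7 and Syt4 are 2 of 8 members. Within both replicate numbers 5 members (Sox10, Sox2, Fabp7, Fxyd1 and Car6) were lower in metastasis, as 27.9% of all genes were, and Syt4 was higher, as 21.7% were. Nothing is read from these counts, since this contrast was in view when the members were chosen.

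Genes that share lists with the members did not pass the test between the sites. The lists hold neural crest regulators, Schwann cell and glial genes, the neurotrophin system, melanocyte lineage genes and paralogs of the members, and 0 of 76 tested genes were called by edgeR, 12 of them with an unadjusted p below 0.05, while DESeq2 called 2 (Aqp1 lower and Trpm1 higher in metastasis) of 71 with an adjusted p, and 32 of all 12413 genes (0.258%). The median log2 ratio of metastasis over primary tumor was -0.67 for the 17 tested Schwann cell and glial genes and 0.61 for the 16 melanocyte lineage genes, against -0.04 for all genes. It was -0.09 for the 16 neural crest regulators, 0.14 for the 6 neurotrophin system genes and -0.27 for the 21 paralogs.

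Among SOX10 targets and partners, Erbb3, the neuregulin receptor of Schwann cell precursors, stood at 38.0 and 75.1 CPM in metastasis and 73.9 and 142 in primary tumor, with overlap. Pax3, a crest factor that acts with SOX10 on Mitf, stood at 150 and 231 against 157 and 214, and Mitf itself at 331 and 437 against 408 and 296, both with overlap. Ednrb, the endothelin receptor of melanoblasts, was at 5.14 to 7.30 in the 4 libraries, and Mia was at 0 to 0.0642. The water channel gene Aqp1 stood at 8.20 and 8.36 in metastasis and 17.5 and 47.4 in primary tumor, with an edgeR adjusted p of 0.175 and of 0.000326 with the replicate block. The receptor tyrosine kinase gene Met was at 75.3 and 110 against 21.8 and 43.3, and its adjusted p went from 0.324 to 0.0287 with that block.

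Shares of cells with a member's UMI were compared once every cell had been thinned at random to 1000 UMIs, which left out 9, 16, 1355 and 18 melanoma cells of metastasis replicates 4 and 5 and primary tumor replicates 4 and 5. Syt4 was found in 70.6% and 84.1% of metastasis melanoma cells and 73.2% and 73.5% of those of primary tumor. The MM libraries of the sites thus overlapped in this share, unlike in CPM. Car6 was found in 50.4% and 26.9% against 90.4% and 38.05%. Fabp7 was found in 1.21% and 1.13% against 3.60% and 1.62%, so that most cells gave no UMI of it at this depth. Sox10 itself was found in 9.68% to 22.8% of cells, and the share in unthinned cells was 26.7% in the shallow primary tumor replicate 4 and 63.3% in replicate 5.

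Sox2 was found in 0 of 248 cells of metastasis replicate 4, which allows up to 1.21% of cells with a UMI at this depth (3 counts, or 1.48% as the exact upper bound) and does not limit the cells that express it, and in 2.01% of metastasis replicate 5, 0.179% of primary tumor replicate 4 and 3.75% of primary tumor replicate 5. Ngfr was found in 2.02%, 0.133%, 0.259% and 0.204% of cells in the same order. Unthinned shares were 0.389%, 10.97%, 0.340% and 16.4% for Sox2 and 5.06%, 0.611%, 0.537% and 0.971% for Ngfr.

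Members were found together in a cell about as often as their shares multiply to. At 1000 UMIs a cell, 59 of 112 pairs of members by library had an expected count of 20 or more, and the ratio of cells with both members to that expectation ranged from 0.773 to 1.23 with a median of 0.999. Of genes seen in 5% or more of these cells, those most like a member within a library were described only where the mean Pearson correlation over the 4 MM libraries reached 0.1, which was the case for Syt4 alone. Its 3 most similar genes were Mitf (mean 0.146, from 0.0478 to 0.323), Malat1 (0.143) and Zbtb20 (0.14), with cells of 1 library sharing that library's free RNA. Metastasis replicate 4, with 248 cells, gave the highest value of each, and without it the means were 0.0868, 0.104 and 0.0564, so that Mitf and Zbtb20 no longer reached 0.1.

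In the primary tumors, cells just under the limit had higher summed levels of Aqp1, Fxyd1, Ngfr, Sox2, Cryab and Sox10 and lower levels of Syt4 and Car6. Among cells of the primary tumor MM libraries with a pigment share of 0.25% to 0.5%, 77 in replicate 4 and 77 in replicate 5 met no host class, at 0.253% and 1.19% of their libraries. The metastasis MM libraries held 61 such cells in replicate 4 (9.56%), described after the primary tumors, and 7 in replicate 5. Values here are CPM without the pigment genes, in these cells against cells with 1% or more of the same library, and the pigment share chose the cells, so they carry no test.

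Aqp1 stood at 338 against 15.3 in replicate 4 (22.2-fold) and 598 against 28.5 in replicate 5 (20.9-fold). Fxyd1 stood at 405 against 194 and at 287 against 64.1 in the same libraries. Ngfr stood at 16.1 (7 UMIs, interval 6.47 to 33.2) against 2.99 and at 24.8 (14 UMIs, interval 13.6 to 41.7) against 1.34. Every one of these levels was higher in the low pigment cells of either tumor. Sox2 stood at 11.5 (5 UMIs) against 1.75 and at 97.5 (55 UMIs) against 40.1, Cryab at 552 against 424 and at 614 against 239, and Sox10 at 246 against 181 and at 360 against 258. Syt4 had the opposite order, with 1217 against 1571 and 569 against 1825, and so had Car6, with 1578 against 2457 and 371 against 548. Fabp7 had wide intervals, with 32.2 (14 UMIs) against 37.8 and 10.6 (6 UMIs) against 16.9.

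Cells just inside the limit, with 0.5% to 1%, lay between for most members in primary tumor replicate 5. Sox2 stood there at 68.3, Ngfr at 6.32, Fxyd1 at 95.5, Sox10 at 295 and Syt4 at 1212. In replicate 4, where 2449 cells fell in this range, Fxyd1 stood at 192, Ngfr at 3.96 and Sox10 at 189.8, close to cells of higher pigment share. Thinned to 1000 UMIs, and with the few cells in a host class left in, cells just outside and those with 1% or more carried an Aqp1 UMI in 25.9% against 1.502% in replicate 4 and 28.05% against 3.22% in replicate 5. Fxyd1 was found in 21.0% against 17.1% and in 25.6% against 5.97%, so in replicate 4 the difference in Fxyd1 was smaller at equal depth and its interval for the low pigment cells, 12.7% to 31.5%, held the share of the others. In replicate 4 the shares of Sox10 (17.3% against 16.0%) and Cryab (34.6% against 34.0%) were likewise close, Sox2 was found in 0 of 81 low pigment cells against 0.169%, and Ngfr in 1 of 81. In replicate 5 Cryab was found in 42.7% against 19.1%, Sox2 in 8.54% against 3.54% (interval of the low pigment cells 3.50% to 16.8%), Sox10 in 28.05% against 22.5% (18.7% to 39.1%) and Ngfr in 2 of 82 cells. The higher CPM of Sox10, Sox2 and Cryab in replicate 4 was thus not seen as a higher share of cells at equal depth. Syt4 had lower shares in both tumors, 56.8% against 73.1% and 31.7% against 75.8%, and so had Car6, 76.5% against 90.5% and 25.6% against 38.6%. The crest factor Pax3 went both ways, with 23.5% against 11.5% in replicate 4 and 7.32% against 19.6% in replicate 5. The low pigment cells were deeper, with medians of 5615 and 7389 UMIs against 1649 and 3638, and whether droplets of 2 cells are among them was not tested.

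**Figure D2:**
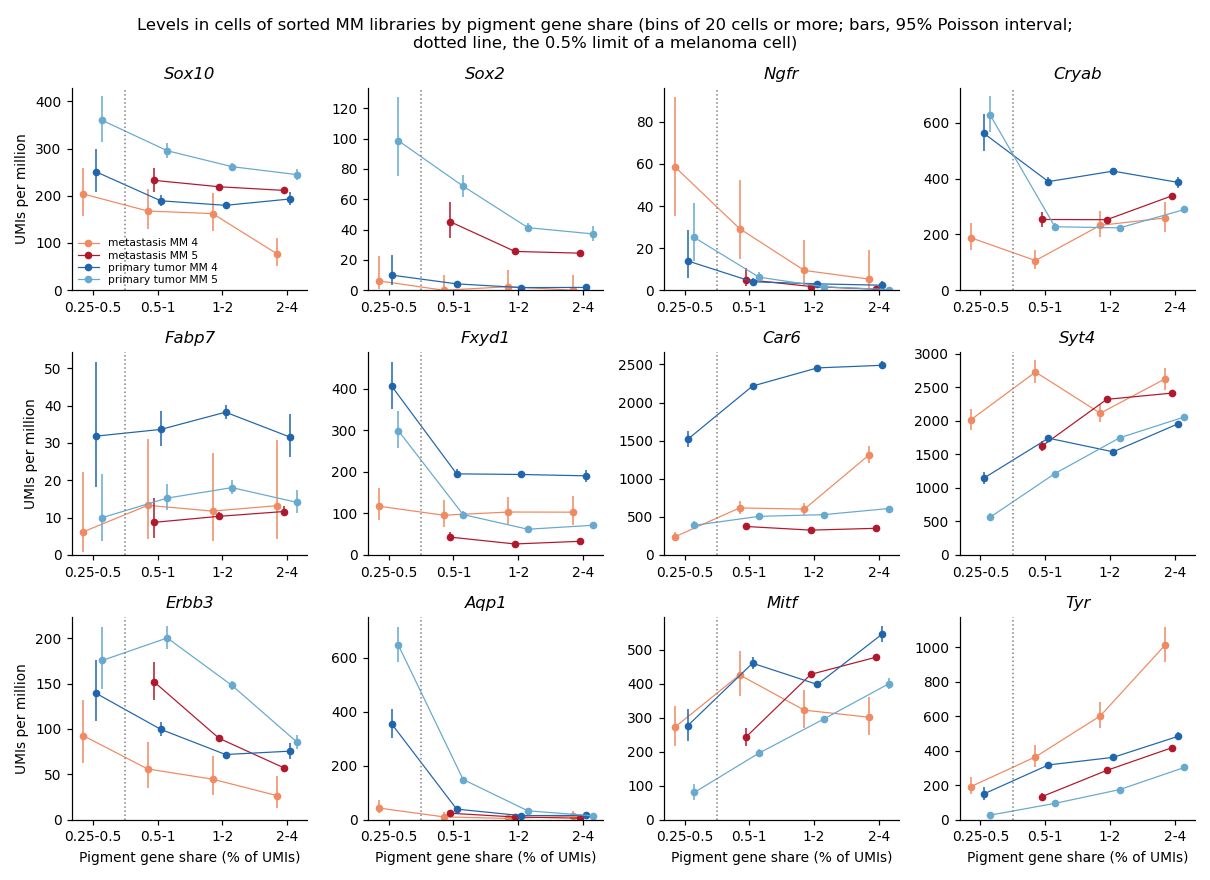
CPM without pigment genes (vertical axes from 0) of the 8 members and of Erbb3, Aqp1, Mitf and Tyr, in cells of the 4 sorted MM libraries by pigment gene share, for bins of 20 cells or more, cells in a host class included. To the left of the dotted line, cells of both primary tumors have high Aqp1, Fxyd1 and Cryab and low Syt4, Mitf and Tyr.

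In metastasis replicate 4 the 61 cells carried 109 CPM of Ptprc against 9.62, so that leukocyte RNA moved with the pigment share, and its part in the values was not tested. Fxyd1 stood there at 120 (interval 82.3 to 170) against 112 and Cryab at 203 (153 to 265) against 247, without the difference seen in the primary tumors. Sox10 stood at 222 against 115, Ngfr at 41.4 (11 UMIs) against 6.42 and Aqp1 at 26.3 (7 UMIs) against 7.49, while Car6 stood at 252 against 1109 and Sox2 at 0 UMIs. At equal depth, with cells in a host class left in, Fxyd1 was found in 9.88% of 81 low pigment cells (4.36% to 18.5%) against 12.8%, Cryab in 12.3% (6.08% to 21.5%) against 18.9%, and Aqp1 in 3.70% against 1.11%.

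Of the related list genes with enough UMIs, Aqp1 and the adhesion gene L1cam (4.89-fold and 5.98-fold) were at least 3 times higher in the low pigment cells of both primary tumors, a size reached by 1.31% of 5287 genes measured alike. Of the melanocyte list, Cited1 (0.259 and 0.292 times) and Slc45a2 (0.314 and 0.269 times) were over 3 times lower, a size reached by 0.839% of 10135 genes. The ratios of Met and Rab27a were also that low, from 2 UMIs of Met in either tumor and from 5 and 2 UMIs of Rab27a. Gpr143 was at 0 UMIs against 4.38 and 4.12 CPM, which this depth cannot tell apart. Among all genes, the highest ratios in both tumors included the collagen genes Col8a1 (22.0 and 43.0) and Col15a1 (15.2 and 17.5), the extracellular matrix linker Hapln1 (20.4 and 15.5) and Ccn2 (17.5 and 14.7). These genes were picked after their values were seen.

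Markers of other cell types were read in the same cells. Ptprc, Col1a1 and Pecam1 were at 0 UMIs in them in both tumors, which allows 6.90 and 5.32 CPM. Of the 10 fibroblast markers 2 and 3 had a UMI, and the summed level was 297 against 10.1 and 129 against 17.6, made up almost wholly of Mgp with 128 of 129 and 69 of 73 UMIs. Of the 10 Schwann cell markers 5 had a UMI in either tumor, and Gfra3, Scn7a, Mal and Kcna1 were among those at 0. Macrophage markers summed to 78.2 against 10.7 in replicate 4, mostly Lyz2, and to 3.55 against 6.99 in replicate 5. Their part in the member levels was not tested.

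The cell cycle was a comparison that the choice of members did not use. Melanoma cells of the 4 MM libraries were classed by their UMIs of S and G2M phase genes per 1000 UMIs, as high (at or above the 67th percentile of their library) or low (at or below the 33rd), and summed counts were compared within libraries. The limits lie close together, at 3 and 5 UMIs per 1000 in both primary tumors, and 4252 of 6368 and 21607 of 28973 cells lay within 1 UMI of a limit. In metastasis replicate 5 they were 2 and 4, with 8691 of 11270 cells as near. In metastasis replicate 4 they were 1 and 2, so that all 248 cells fell in a class with no gap between the classes and 193 lay within 1 UMI. The high class had a lower median pigment share, 1.47% against 1.86% and 1.82% against 1.93% in metastasis replicates 4 and 5. In primary tumor replicates 4 and 5 the shares were 1.439% against 1.444% and 1.35% against 1.48%. The part of pigment share in this comparison was not tested. Phase genes aside, edgeR called 502 of 12774 genes (3.93%), 385 higher (3.01%) and 117 lower (0.916%) in the high class. In every library 13.5% of genes were higher and 7.88% lower.

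Members were not called in this comparison, 0 of 8 by edgeR or DESeq2, and 3 had an unadjusted p below 0.05 in edgeR, as had 1929 of all genes (15.1%). DESeq2 called 2.52% of all genes. Fabp7 stood higher in the high class in 4 of 4 libraries (0.10 to 2.79 on the log2 scale, fitted 0.28 ± 0.11 SE, edgeR adjusted p = 0.227), and the largest of these values rests on the few UMIs of metastasis replicate 4. Cryab was lower in 3 of 4 libraries (fitted -0.27 ± 0.10 SE, edgeR adjusted p = 0.18), as were Fxyd1 (-0.21 ± 0.10, adjusted p = 0.315) and Car6 (-0.25 ± 0.13, adjusted p = 0.387). Sox10 at -0.04 ± 0.08 and Syt4 at -0.10 ± 0.12 had edgeR adjusted p of 0.866 and 0.768. Sox2 (-0.06 ± 0.12) and Ngfr (-0.06 ± 0.21) were not called either.

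Leaving out the MM library of primary tumor replicate 4 changed these calls. Without it 2134 genes were called (17%), and Cryab (edgeR adjusted p = 1.13e-05), Fabp7 (0.0366), Fxyd1 (0.00152) and Car6 (0.00443) passed, in the directions given, while Sox10, Sox2, Ngfr and Syt4 did not. That library has the lowest depth, and in it the log2 ratios of Cryab, Fabp7, Fxyd1 and Car6 were 0.03, 0.10, -0.05 and 0.03. Fxyd1 also lay near 0 in metastasis replicates 4 and 5 (-0.04 and 0.04) and stood at -0.56 in primary tumor replicate 5. Car6 stood at -0.06 in metastasis replicate 5. Whether depth plays a part was not tested. Of the related genes, 3 of 72 were called. Aqp1 fell by 0.67 on the log2 scale (adjusted p = 0.00158) and Fabp3, a fatty acid binding protein and paralog of Fabp7, fell by 0.45 (0.0131), each lower in 4 of 4 libraries. Sox11, a factor of the SoxC group, rose by 0.36 (0.0248) in 4 of 4 libraries. The Sox11 call ended with DESeq2 (log2 ratio 0.34, adjusted p = 0.194), at a pigment limit of 1% (0.32, edgeR adjusted p = 0.0684) and without metastasis replicate 5 (0.33, adjusted p = 0.217), with ratios close to the one given. Aqp1 stood at -0.27 and was not called at a limit of 1% (edgeR adjusted p = 0.233). Without primary tumor replicate 5 the log2 ratios were -0.43 for Aqp1, -0.31 for Fabp3 and 0.25 for Sox11, with edgeR adjusted p of 0.221, 0.322 and 0.592.

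**Figure D3:**
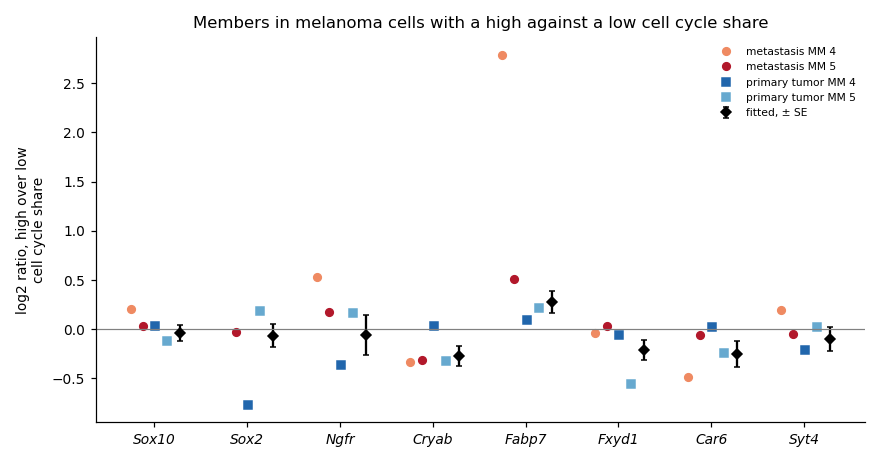
Log2 ratio of each member in melanoma cells with a high against a low share of cell cycle UMIs, for each of the 4 sorted MM libraries (circles, metastasis; squares, primary tumor) and as fitted by edgeR (diamonds, bars ± SE). Sox2 in metastasis replicate 4 has no point because its high class held no UMI. Fabp7 lies above 0 in all 4 libraries, and the points of primary tumor replicate 4 lie near 0 for Cryab, Fxyd1 and Car6. For Fxyd1 the points of both metastases lie near 0 too.

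In host cells of unchallenged lung most members were close to absent. Host cell levels also entered the choice of members, so these values are a description. Sox10 was at 0 to 1 UMI in each of the 4 libraries (0 to 0.162 CPM) and Car6 at 0 to 6 UMIs (0 to 0.112), and Syt4 stood at 0.0499 to 0.325 CPM. Ngfr stood at 0.147 to 0.649 and Fabp7 at 0.257 to 1.14. Cryab at 6.41 to 18.4, Fxyd1 at 3.25 to 19.5 and Sox2 at 0.3 to 36.4 were higher, in different cell classes.

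Among lung classes with 20 or more cells in a library, Sox2 was highest in the airway. Ciliated cells held 174 CPM in lung replicate 5 and 133 in replicate 6, and club cells 103 and 74.1, for the libraries with 20 or more cells of the class. Macrophages or monocytes held 0 to 5.89 over the 4 libraries. At 1000 UMIs, 12.4% of 2406 ciliated cells (exact 95% interval 11.1% to 13.8%) and 6.42% of 1106 club cells carried a Sox2 UMI, against 0.476% of 6716 macrophages or monocytes. Median depths before thinning were 2395, 1742 and 2466.5 UMIs. The 12 neuroendocrine cells, all of lung replicate 6, held 262 CPM of Sox2. Lung cells that met no class held 32.3 CPM, with 895 Sox2 UMIs in 14032 cells. Ciliated and club cells held 1166 and 205 UMIs. The low values of Sox2 over all host cells of a lung library (0.3 and 4.38) are those of the libraries with 2 and 19 ciliated cells.

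Among lung classes with 20 or more cells in a library, Fxyd1 was highest in fibroblasts. They held 524, 505 and 212 CPM in lung replicates 4, 5 and 6, above the 29.3 to 191 of melanoma cells in the MM libraries. Fibroblasts of tumors held 208 and 70.1 in metastasis TME replicates 5 and 6 and 153, 97.4 and 65.5 in primary tumor replicates 4, 5 and 6. Cryab in lung fibroblasts stood at 201, 111 and 48.1 and in endothelial cells at 9.69 to 25.8, against 202 to 414 in melanoma cells. At equal depth 22.0% of 605 lung fibroblasts carried an Fxyd1 UMI and 0.194% of 4644 endothelial cells did, from median depths of 2043 and 3357 UMIs.

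**Figure D4:**
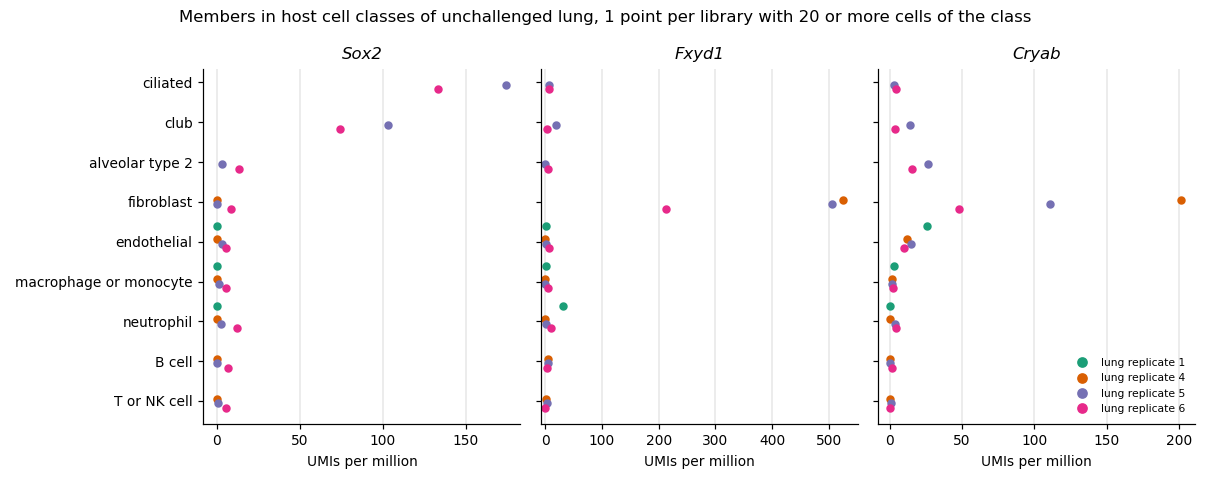
CPM of Sox2, Fxyd1 and Cryab in host cell classes of unchallenged lung, with 1 point for each library that held 20 or more cells of the class. Sox2 is high in ciliated and club cells, while Fxyd1 and Cryab are high in fibroblasts, with library values from 212 to 524 for Fxyd1.

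In host cells of tumors, members were found beside pigment RNA. Host cells here are all cells under the pigment limit. Of them, 689 in metastasis and 546 in primary tumor TME libraries met no host class. Melanoma cells with little pigment RNA were not told apart among host cells. Syt4 stood at 30.4 to 510 CPM in the host cells of the 8 TME libraries and Sox10 at 4.33 to 75.6, against at most 0.325 and 0.162 in unchallenged lung. Relative to the pigment genes, Syt4 in host cells was 0.712 to 1.57 times its ratio in the melanoma cells of the same library, and Car6 was 1.43 to 2.36 times it in 7 libraries. The exception for Car6 was the metastasis TME library of replicates 1-3, at 36.2, with 5 melanoma cells outside the host classes. That library also gave the 0.712 of Syt4. Sox10 was 1.05 to 3.49 times and Fxyd1 3.94 to 36.6 times its ratio in melanoma cells, Cryab 3.94 to 32.5 times. The highest ratios of Sox10, Fxyd1 and Cryab come from the TME library of primary tumor replicate 5. Its 20 melanoma cells outside the host classes held 35, 10 and 13 UMIs of these genes.

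Macrophages or monocytes, which held 0 to 0.264 CPM of Syt4 in unchallenged lung, held 22.9 to 181 CPM of Syt4 in the tumor libraries with 30 or more such cells. The pigment genes stood in those cells at 195.3 to 2246 CPM, and free melanoma RNA was not told apart from expression in host cells. Schwann cells, which could carry these genes, were 4 cells in metastasis and 2 in primary tumor TME libraries and 0 in unchallenged lung. The 2 cells of primary tumor replicate 5 held 1094 CPM of Cryab, 618 of Fxyd1 and 285 of Sox10 with 95.1 of Syt4.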

How the data were processed

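The values deposited by the authors are raw counts of UMIs per gene and cell, made with Cell Ranger 6.1.1 on GRCm38 (mm10) per the labels, and already filtered for cells. The submitters also name Seurat 3.2.2, and the log-normalized matrix, whose copy ends before the last entry its size line announces, was not used. Cells were tied to samples through the library names, 5 names identical to another were merged, and 9924 repeated cells were removed, which left 16 libraries of 1777036 to 60339415 UMIs. Names and labels disagree on some replicate numbers, and the numbers of the labels are used.

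The members and gene lists were chosen with earlier results of these data known. Melanoma cells were summed per MM library and fitted with edgeR 4.0.16 in R 4.3.3 (filter by expression, TMM, quasi-likelihood test, Benjamini-Hochberg over all genes, called below 0.05), with DESeq2 1.42.0 as an alternative. The cell cycle comparison had the library as a block. Where nothing says that libraries are separate cultures or animals, p-values measure the spread between libraries. Replicate numbers of the MM libraries mark the run in the library names and, for replicate 5, the same mouse. Deviations from the site means correlated with r = 0.102 over 5802 genes between libraries of the same number. Named genes are all members, up to 5 called list genes per comparison and direction with a mean of 20 CPM or more and no overlap (for cell cycle pairs, the same sign in every library), and Mitf, Pax3, Erbb3, Ednrb and Mia. Some genes under this rule are not reported here. Other genes were named after their values were seen. A host cell was given the class of which it carried the most markers (at least 4 of 10, and at least 2 more than of any other of 14 classes). Cells were thinned without replacement with Python 3.11.15 and numpy 2.4.6. Intervals are 95% (exact Poisson for UMIs, Clopper-Pearson for shares) and cover counting error only, and a count of 0 allows 3 counts. Doublets were not called. The fits were tested on simulated data. Levels are counts per 1000000 UMIs of 3' ends and were not compared between genes.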

Additional observations from a re-analysis of the deposited data

Results flagged for a closer look

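Of 40 groups of 4 libraries examined for a library far from the others, 1 was flagged, where chance flags about 1 in 20. Syt4 in the melanoma cells of the primary tumor TME library of replicate 4 stood at 2617 CPM, against 1697 as the nearest and 1566 as the lowest of the other 3 primary tumor libraries. The MM library of the same mouse held the 1566, and 50 of the 178 melanoma cells of the TME library (28.1%) met a host class. Without them its Syt4 level was 2520 CPM.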

How the results depend on the processing

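Counts of genes called between metastasis and primary tumor moved with almost every setting, from 1 gene (0 of the related lists). DESeq2 called 32 (2 related), RLE size factors 12, no filter on low counts 112 (3 related), a pigment limit of 1% 20, the MM and TME libraries together 0, MM and TME cells summed per site and replicate number 0, and MM and TME libraries without cells in a host class, an alternative chosen after seeing the data, 2. Leaving out each MM library in turn gave 9 to 84 genes, with 0 to 1 related. With the replicate block 101 genes were called, 2 of them related (Met and Aqp1). A limit of 2% gave 1 gene. The cause was not tested.

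For high against low cell cycle share, 502 genes (3 related) became 315 with DESeq2, 780 (12 related) with no filter, and 0 (0 related) with no replicate block. The related genes called were 5 with the limit at 1% and 5 with the 80th and 20th percentiles. Leaving out each library gave 202 (without primary tumor MM replicate 5) to 2134 (without primary tumor MM replicate 4), with 0 to 32 related.

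The sign of the fitted site ratio changed in 1 of 13 alternatives for Sox10, Cryab and Car6, in 2 for Ngfr, in 4 for Sox2 and in 0 for Fabp7 (-1.92 to -0.46), Fxyd1 (-2.32 to -0.01) and Syt4 (0.35 to 0.55). Fxyd1 was nearest 0 without primary tumor MM replicate 4. Of 96 shares of cells with a UMI under other depths or limits, 79 moved by more than the counting interval. Groups of 2 libraries, of which metastasis replicate 4 has 257 melanoma cells, limit the precision.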
